A study of Mus musculus with 8 samples.

Results

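The TRIM (tripartite motif) family was examined in Neuro2a cells, a mouse neuroblastoma line, after transfection with plasmids for CRISPR activation. Its members were taken by name, as every gene of the count table called Trim followed by a number and at most 1 letter, so antisense and pseudogene names stay out. This gave 68 genes of 55367, all protein coding in GENCODE M21. A fold change is given for the 44 members with a mean of at least 0.5 CPM (counts scaled to a common library total) over the libraries, and the other 24 are given by their counts. In the CRISPRa group the sgRNA plasmid (750 ng) was given together with a plasmid (750 ng) for sadCas9-VP64, a catalytically inactive Cas9 fused to a transcriptional activator. The controls received the sadCas9-VP64 plasmid without an sgRNA plasmid, in an amount that the labels do not give. The activator is therefore shared by both groups, and the controls carry no guide of any kind. Poly(A)-enriched RNA was counted in 3 CRISPRa libraries (replicates 2, 3 and 5) and 3 no-sgRNA libraries (replicates 2, 3 and 4), from a single cell line, and the labels do not say whether replicates are separate cultures, so p-values measure only the spread between these libraries.

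TRIM proteins are built from a RING finger, B-box zinc-binding domains and a coiled coil, and most act as E3 ubiquitin ligases. Their C-terminal domains set them apart: many carry a PRY-SPRY domain that binds targets, others an NHL repeat, a PHD finger with a bromodomain, or a fibronectin domain. Several are induced by interferon and restrict viruses or tune the pathways that sense viral RNA and DNA, while others serve chromatin silencing, the cytoskeleton, muscle or early development.

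The libraries held between 29739422 and 34248514 counts. Scn2a, the gene the series is directed at, had 231 to 279 counts in the CRISPRa libraries and 130 to 193 without the guide. Of 13 markers of sympathoadrenal neuroblasts, 12 reached 0.5 CPM, and their summed level was 2005 to 2126 CPM without the guide and 1754 to 1990 CPM with CRISPRa. Phox2a and Hand2 were called lower, with log2 changes of -0.69 and -0.43 (edgeR adjusted p 0.0020 and 0.00051). Chga and Tubb3 were called higher, with log2 changes of 0.33 and 0.20 (edgeR adjusted p 0.0025 and 0.049). Of 7 macrophage markers 1 reached 0.5 CPM, with sums of 1.43 to 2.01 CPM with CRISPRa and 0.772 to 1.85 CPM in the controls, and Itgam and Adgre1 had 0 counts in every library. Fibroblast markers summed to 28.8 to 31.7 CPM without the guide and 14.7 to 21.5 CPM with CRISPRa. Of these, Col1a2 and Pdgfra were called lower, with log2 changes of -0.88 and -0.70 (edgeR adjusted p 0.0066 and 0.0017). Endothelial markers summed to 8.46 to 11.7 CPM with CRISPRa and 10.1 to 13.4 CPM in the controls, with Kdr at 0. Most of that sum was Pecam1, while Cdh5 was called higher, at 1.70 ± 0.369 against 0.408 ± 0.280 CPM (SD, n = 3, edgeR adjusted p 0.0105). Those of astrocyte and epithelial cells summed to 0.865 to 1.68 CPM in any library, with Epcam at 0. The part of these shifts in the TRIM values was not tested, and in bulk RNA fewer cells of a type and less RNA per cell cannot be told apart. Low counts were mostly even: of counts from 3 to 10, 72.8% to 76.0% were even in a library, against 51.2% to 53.0% of counts above 500, and where this comes from was not tested. The counting options are not given in the sources used here, so a small count may stand for fewer fragments than its number.

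A small group of TRIM genes was far higher with CRISPRa and most of the family lay close to its control level. Of the 44 members with a fold change, 12 rose, 2 fell and 30 did not pass the test (edgeR's quasi-likelihood test, Benjamini-Hochberg adjusted p under 0.05 over 15117 genes). Over all tested genes 9.47% were called higher and 9.25% lower, 18.7% in all. Limited to genes with a mean of at least 0.5 CPM, as the members are, these shares were 10.1% and 9.95%. The members that rose by at least 2-fold numbered 7 and none fell by that much, where 1.77% of all tested genes rose and 0.351% fell so far, 2.12% in all, and 1.78% rose so far at 0.5 CPM or more. The median log2 change was 0.16 over the 44 members and -0.0071 over all tested genes. Of the 44, 4 (Trim30a, Trim34a, Trim34b and Trim69) stood under 0.5 CPM in the no-sgRNA mean and reached the limit only through the CRISPRa libraries, so a difference was built into their inclusion. Among the 40 members at or above 0.5 CPM without the guide, 9 rose, 4 of them by at least 2-fold, 2 fell and 29 did not pass.

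**Figure D1:**
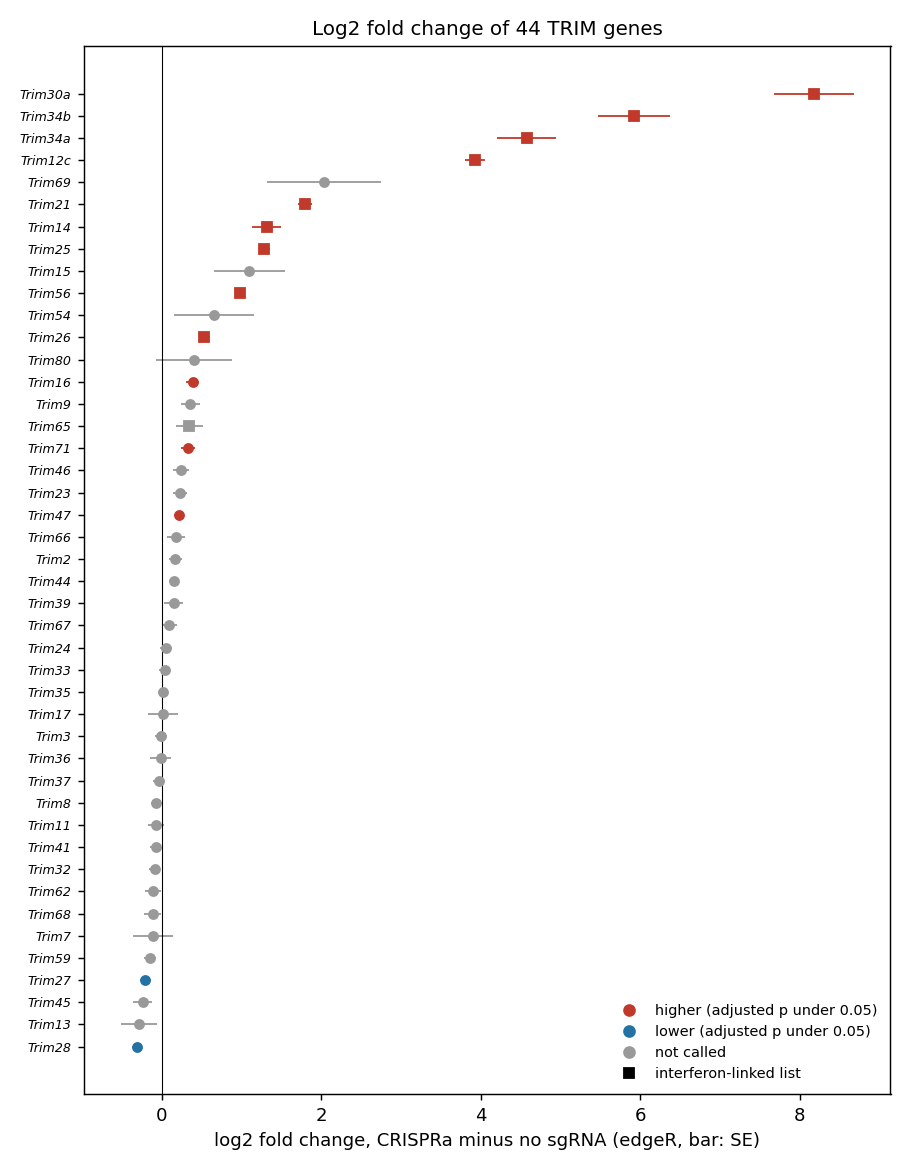
Log2 fold change (CRISPRa minus no sgRNA, horizontal axis) with its standard error for the 44 TRIM genes, ordered by value; red and blue mark genes called higher and lower, grey those not called, and squares the interferon-linked list. The top 4 points lie between 3.93 and 8.18, and of the 30 genes not called 23 lie within 0.25 of 0.

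Of the 12 members that rose, 9 belong to a list of 17 interferon-linked TRIM genes. It holds genes known for induction by interferon or for a part in antiviral signalling and was drawn up with these results known. Whether every member with such a part is on it was not checked. The contrast with the other members may therefore follow from the choice, and does not describe all antiviral TRIM genes. Of the 17, 10 had a fold change, of which 9 rose and Trim65 did not pass, and 7 were too low for one. Their median log2 change was 1.56, from 0.35 to 8.18, and the groups were apart in all 10. For 3 of them (Trim30a, Trim34a and Trim34b) inclusion itself fixed the direction, as above. Of the 7 at or above 0.5 CPM without the guide 6 rose, with a median of 1.29 over the 7. Of all members with a fold change the groups were apart for 19 with CRISPRa higher and 5 with it lower, where this held for 17.7% and 18.7% of all tested genes, 36.4% together. The list's share of the summed TRIM level was 7.83% ± 0.270 without the guide and 17.4% ± 0.701 with CRISPRa (SD, n = 3). Among the other 34 members 3 rose and 2 fell, none of them by 2-fold, with a median of 0.03. Their log2 changes ran from -0.31 to 2.04, the highest being that of Trim69, which did not pass.

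**Figure D2:**
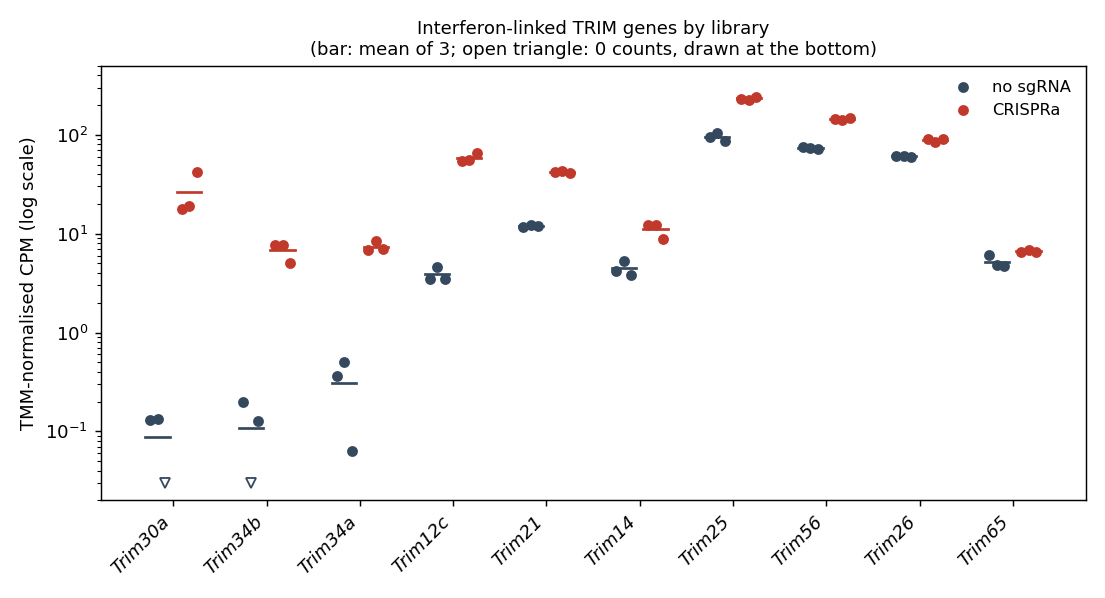
TMM-normalised CPM (log axis) of the 10 interferon-linked TRIM genes with a fold change, in 3 no-sgRNA (dark) and 3 CRISPRa (red) libraries, with bars at the means and open triangles for 0 counts. Red points lie above dark points in every gene, by the widest margin in Trim30a (26.5 against 0.0886 CPM) and the narrowest in Trim65 (6.63 against 5.21 CPM).

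The steepest rises came from a cluster of TRIM genes on chromosome 7. Between Trim6 and Trim30d (chr7:104218793-104507849, GRCm38, 289 kb) the count table lists 18 genes, 10 of them TRIM members, among them Trim5, the namesake of the primate retrovirus restriction factor. Only Trim30a, Trim34a, Trim34b and Trim12c reached 0.5 CPM. All 4 were called higher, but Trim12c alone also reached 0.5 CPM without the guide, and for the other 3 a rise was built into their inclusion. The other 8 genes are pseudogenes, antisense genes and small nuclear RNAs, 5 of them with 0 counts in every library.

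The start regions of cluster genes are shown because several hold the same interferon response word. The word searched was GAAA, any 2 bases and GAAA again, the core of an interferon-stimulated response element, on both strands of RefSeq promoter windows (250 bases before to 50 after a start, GRCm38.p6). Each sequence below reads 5′ to 3′ on the gene's strand, and capitals mark the word or its reverse complement.
Trim30a, chr7:104465200-104465249, minus strand: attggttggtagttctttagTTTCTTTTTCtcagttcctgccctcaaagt
Trim30d, chr7:104507861-104507910, minus strand: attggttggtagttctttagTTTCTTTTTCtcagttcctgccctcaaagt
Trim12c, chr7:104353350-104353398, minus strand: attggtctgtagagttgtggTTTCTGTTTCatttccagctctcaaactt
Trim5, chr7:104288126-104288175, minus strand: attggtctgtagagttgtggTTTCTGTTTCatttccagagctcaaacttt
Trim12a, chr7:104315466-104315495, minus strand: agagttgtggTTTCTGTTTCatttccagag
Trim34a, chr7:104244457-104244486, plus strand: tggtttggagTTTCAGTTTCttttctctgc
Trim21, outside the cluster, chr7:102565447-102565476, minus strand: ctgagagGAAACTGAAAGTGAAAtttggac
Trim26, chr17:36836966-36837021, plus strand: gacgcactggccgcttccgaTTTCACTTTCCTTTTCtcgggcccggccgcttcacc
The Trim21 and Trim26 runs hold 2 overlapping copies each. Counted from base 1 as the first transcribed base, the word starts at -36 in Trim30a, -41 in Trim30d, -29 in Trim12c, -49 in Trim5, 11 in Trim12a and in Trim34a, 14 in Trim21 and -160 in Trim26.

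Windows were matched for 53 of the 68 members, and 9 of them held the word, against 3.99% of 27025 genes with a window. They were the 8 shown and Trim2, in 1 of its windows. Trim30a also held the word in another window, not shown, where it starts at 3. Some of these windows are copies of each other: Trim5 and Trim12a match at 241 of 241 bases, and Trim30a and Trim30d at 276 of 295. Of the 6 members with a window that rose at least 2-fold, 4 held it, as did 2 of the 28 other members with a fold change and 3 of the 19 low members. The 6 include Trim30a, Trim34a and Trim34b, for which a rise was built into their inclusion. Of the rest, Trim12c and Trim21 held the word and Trim25 did not. The longer word, with CT added at the 3′ end and so always overlapping the first, is present in 0.303% of genes and was found in Trim30a, Trim30d and Trim34a. TTCNNNGAA, the core of a gamma-activated site, was found in 6 of the 53, against 9.55% of genes. Trim34b and Trim25 rose at least 2-fold and their windows did not hold the 10-base word. No window was matched for Trim3, Trim8, Trim11, Trim14, Trim16, Trim17, Trim29, Trim33, Trim35, Trim36, Trim43b, Trim43c, Trim50, Trim55 and Trim65. A match is a description of letters and no evidence of binding.

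Trim30a, which encodes a restraint on Toll-like receptor signalling to NF-kB, had 619, 628 and 1368 counts in CRISPRa replicates 2, 3 and 5 and 4, 4 and 0 counts in no-sgRNA replicates 2, 3 and 4. CRISPRa replicate 5 stood at 42.2 CPM, above the 18.0 and 19.2 CPM of replicates 2 and 3, and the groups did not overlap. The log2 change was 8.18 (edgeR, SE 0.50, adjusted p 1.50e-08), with a no-sgRNA level that rests on 8 counts in all. It was 7.59 without no-sgRNA replicate 4, 7.68 without CRISPRa replicate 5 and 7.09 in the 4 libraries numbered 2 and 3. Trim30d, whose printed stretch is the same as that of Trim30a and whose window matched it at 276 of 295 bases, had 0 counts in all 6 libraries. Trim30b and Trim30c had at most 4 counts in any library. Trim30a shares 5.98% of its 50-base transcript words with Trim30d.

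Trim12c, which is close in sequence to Trim5 and promotes type I interferon and NF-kB signalling, had 54.4, 55.6 and 66.2 CPM with CRISPRa and 3.51, 4.58 and 3.51 CPM in the controls. The rise was steady across libraries, with a log2 change of 3.93 (edgeR, SE 0.13, adjusted p 4.54e-12). It was the best measured rise of the cluster, as its no-sgRNA libraries held 107 to 136 counts. Its near relatives Trim5 and Trim12a hold the same word in their windows, which match each other at 241 of 241 bases, and stayed near the detection limit. Lined up at the word without gaps, the Trim12c window matched that of Trim5 at only 150 of 280 bases. It matched that of Trim12a at 120 of 261. Trim5 had 9, 6 and 11 counts with CRISPRa and 5, 4 and 5 without the guide. Trim12a had 3, 4 and 4 counts with CRISPRa and 8, 9 and 1 without it. Neither was tested. Trim12c shares 33.7% of its words with other genes, 24.2% with Trim5, and Trim5 shares 36.6%, so counts of this pair are uncertain where the counting could split them.

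Trim34a and Trim34b, a duplicated pair related to TRIM5, were nearly silent without the guide. Trim34a had 233, 277 and 225 counts with CRISPRa and 11, 15 and 2 without it, which is 4.58 on the log2 scale (edgeR, SE 0.37, adjusted p 6.09e-07). Trim34b had 266, 252 and 164 counts with CRISPRa and 6, 0 and 4 without it, which is 5.92 on the log2 scale (edgeR, SE 0.45, adjusted p 2.47e-07), with 6.63 without no-sgRNA replicate 2 and 5.37 without no-sgRNA replicate 3. Both genes were clear of overlap between groups. Of the words of Trim34a 39.8% occur in Trim34b, and of those of Trim34b 56.8% occur in Trim34a, so the split between them is uncertain. Of the Trim34a exonic bases 23.5% lie opposite another gene, and the antisense gene there, Gm47248, had 0 counts in every library. Trim6, next to Trim34a, had 4 counts in CRISPRa replicate 5 and 0 elsewhere.

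**Figure D3:**
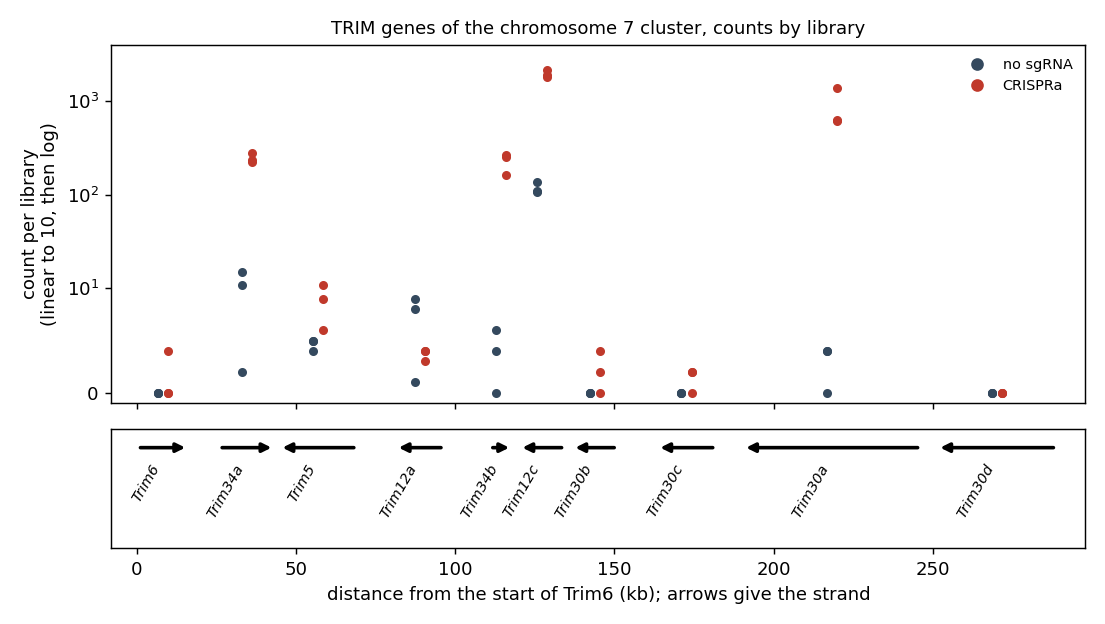
Counts of the 10 TRIM genes of the chromosome 7 cluster in each library (vertical axis linear to 10 and logarithmic above), placed by distance in kb from the start of Trim6, with arrows for the strand below. Trim34a, Trim34b, Trim12c and Trim30a stand above 100 counts in the CRISPRa libraries, Trim12c also in the no-sgRNA libraries, while the 6 others stay at 11 counts or fewer in every library.

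Outside the cluster, Trim21, Trim25, Trim56, Trim26 and Trim14 rose by smaller steps than the 4 cluster genes. The control levels of Trim21, Trim25, Trim56 and Trim26 were above that of Trim12c. The control libraries of Trim14 (4.23, 5.32 and 3.85 CPM) overlapped those of Trim12c (3.51, 4.58 and 3.51 CPM). Trim21, a cytosolic antibody receptor that targets coated virus for degradation, stood at 41.8, 42.7 and 41.4 CPM with CRISPRa and at 11.8, 12.3 and 12.1 CPM in the controls. Its libraries hardly varied within a group, and the log2 change was 1.80 (edgeR, SE 0.09, adjusted p 1.36e-09). Trim25, the ligase that ubiquitinates the RNA sensor RIG-I, stood at 232, 226 and 241 CPM with CRISPRa and at 95.6, 104 and 86.2 CPM in the controls. Every CRISPRa library thus held more than the highest control, with a log2 change of 1.29 (edgeR, SE 0.07, adjusted p 6.58e-09). Trim56, which supports signalling from DNA and RNA sensors, stood at 144, 141 and 149 CPM against 74.5, 73.6 and 71.8 CPM. Its log2 change of 0.98 (edgeR, SE 0.06, adjusted p 3.21e-08) was just short of 2-fold. Trim26, a regulator of interferon induction, stood at 90.8, 84.8 and 90.6 CPM against 61.7, 61.6 and 60.2 CPM, with the smallest rise of the list that passed, 0.54 (edgeR, SE 0.07, adjusted p 8.27e-05).

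Trim14, an adaptor without a RING finger that works with the mitochondrial protein MAVS, stood at 12.4, 12.3 and 8.76 CPM with CRISPRa and at 4.23, 5.32 and 3.85 CPM in the controls. CRISPRa replicate 5 was the lowest of its group here, whereas it was the highest for Trim30a and Trim12c. The log2 change of Trim14 was 1.32 (edgeR, SE 0.18, adjusted p 0.000173). Its value is uncertain, because exons of genes on the opposite strand cover 38.0% of its exonic bases and the use of strand in counting is not given in the sources used here. Nans, the gene that shares most of that sequence, stood at 41.3 to 41.6 CPM with CRISPRa and 46.1 to 59.7 CPM in the controls, scaled by library totals alone. Trim65, which activates the RNA sensor MDA5, stood at 6.53, 6.89 and 6.47 CPM against 6.06, 4.82 and 4.74 CPM. Its groups did not overlap, but the log2 change of 0.35 (SE 0.17) did not pass (edgeR adjusted p 0.175). Trim38 had at most 6 counts in any library.

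Ranked per length of exon, the family was led by genes outside the interferon-linked list. In the no-sgRNA libraries Trim28 stood at 146 ± 7.55 CPM per kb of exon, followed by Trim35 at 92.1 ± 4.74, Trim47 at 51.6 ± 1.30, Trim44 at 51.2 ± 2.04 and Trim59 at 36.8 ± 3.25 (SD, n = 3). Trim47 and Trim44 did not differ beyond their spread, nor did Trim59, Trim8 at 35.7 ± 1.64 and Trim27 at 34.5 ± 0.937. The first 4 places were the same in the CRISPRa libraries. The fifth was taken by Trim25, which moved from rank 11 at 16.6 ± 1.54 to 40.5 ± 1.33 CPM per kb. Trim30a went from 0.0216 to 6.44 CPM per kb, far below these genes even after its rise.

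**Figure D4:**
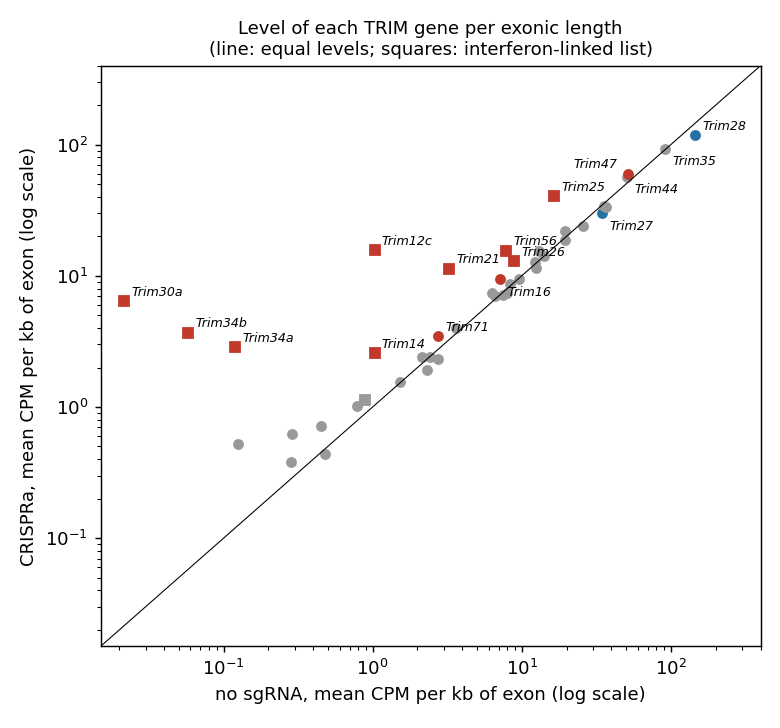
Mean level per kb of exon of the 44 TRIM genes without the guide (horizontal) and with CRISPRa (vertical), both log axes, with the line of equal levels; colours and squares are as in the plot of fold changes. Most genes lie close to the line, Trim28 lies below it at the top (146 against 118 CPM per kb), and Trim30a, Trim34b, Trim34a and Trim12c lie far above it.

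The TIF1 group joins a PHD finger and a bromodomain and works on chromatin. Trim28, the corepressor that KRAB zinc finger proteins recruit to silence retroelements, was the most abundant TRIM gene and fell. It stood at 486, 499 and 484 CPM with CRISPRa and at 581, 595 and 641 CPM in the controls. All 3 CRISPRa libraries were below all controls, with a log2 change of -0.31 (edgeR, SE 0.06, adjusted p 0.00297), and its share of all TRIM counts was 13.6% ± 0.252 against 18.5% ± 1.25 (SD, n = 3). The share also reflects a higher family sum with CRISPRa, at 3607 ± 24.4 CPM against 3271 ± 50.3 CPM in the controls (SD, n = 3). The other members of the group did not pass: Trim24 had a log2 change of 0.06, Trim33 of 0.04 and Trim66 of 0.18, with edgeR adjusted p-values from 0.270 to 0.745. Trim66 varied most of the group between controls, at 224, 216 and 153 CPM. Setdb1, the histone methyltransferase that works with Trim28, had a log2 change of -0.03 (edgeR adjusted p 0.798).

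Trim27, a nuclear RING protein, was the remaining member that fell. It stood at 156, 163 and 175 CPM with CRISPRa and at 184, 193 and 192 CPM in the controls, which is -0.20 on the log2 scale (edgeR, SE 0.06, adjusted p 0.0403). The call was lost in 5 of the 6 fits that left out a library: without CRISPRa replicates 2 and 3 the adjusted p was 0.215 and 0.155, and without no-sgRNA replicates 2, 3 and 4 it was 0.0526, 0.130 and 0.0684. It was also lost with library totals as the only scaling (0.0576) and with no filter (0.0539).

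Outside the interferon-linked list 3 members rose, all by less than 2-fold. Trim16, a B-box protein without a RING finger, stood at 42.2, 44.5 and 42.2 CPM with CRISPRa and at 30.8, 33.5 and 34.2 CPM in the controls, which is 0.39 on the log2 scale (edgeR, SE 0.08, adjusted p 0.00404). Its groups were well apart, and the call held in every fit that left out a library. Trim47 stood at 171, 170 and 153 CPM against 137, 143 and 144 CPM, which is 0.22 on the log2 scale (edgeR, SE 0.07, adjusted p 0.0295). The adjusted p was 0.105 without CRISPRa replicate 2, 0.114 without CRISPRa replicate 3, 0.0953 without no-sgRNA replicate 2 and 0.0823 without no-sgRNA replicate 3. Trim47 also shares 8.23% of its exonic bases with another gene on its own strand, and 6.58% of its words occur in its neighbour Trim65.

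The NHL group binds RNA or cargo through a C-terminal propeller. Trim71, the stem cell factor known in worms as lin-41, stood at 30.9, 34.2 and 31.8 CPM with CRISPRa and at 26.6, 25.6 and 24.6 CPM in the controls. Its groups did not overlap, and the log2 change was 0.33 (edgeR, SE 0.09, adjusted p 0.0166). The adjusted p was 0.0801 without CRISPRa replicate 3, 0.0566 without no-sgRNA replicate 3 and 0.0507 without no-sgRNA replicate 4. Trim2, Trim3 and Trim32, which are expressed in neurons, had log2 changes of 0.17, -0.0065 and -0.09 and did not pass (edgeR adjusted p from 0.167 to 0.967). The direction of Trim3 turned with the scaling, as given among the limits.

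The COS and fibronectin group binds microtubules and is known from axons and synapses. None of its 4 members with a fold change passed the test, and the unadjusted edgeR p was 0.0094 for Trim9 and 0.037 for Trim46. Trim9, a brain-enriched ligase of axon branching, came closest, with 13.8, 16.6 and 14.2 CPM with CRISPRa and 11.8, 11.3 and 11.6 CPM in the controls. Its groups did not overlap, and the log2 change of 0.36 (SE 0.12) had an edgeR adjusted p of 0.0502. It passed in 8 of 11 alternatives with no single library left out, DESeq2 among them (adjusted p 0.0354), and in none of the 6 that left one out. Trim46, which organises microtubules at the axon initial segment, had a log2 change of 0.24, Trim67 of 0.10 and Trim36 of -0.01, each with overlapping groups. Trim42 had 0 counts in every library.

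Among the muscle RING finger genes, Trim54 had 9 to 42 counts per library and a log2 change of 0.66 (edgeR, SE 0.50, adjusted p 0.406). Trim63 had at most 24 counts and Trim55 had 0 counts in every library. Trim69, a ligase linked to the centrosome, had 42, 41 and 16 counts with CRISPRa and 12, 0 and 10 without the guide. Its log2 change of 2.04 (SE 0.72) was larger than that of Trim21, yet it did not pass (edgeR adjusted p 0.0611). It passed in 6 of 9 alternatives with no single library left out, DESeq2 (0.0255) and limma-voom (0.0454, at a log2 change of 2.80) among them, and in none of the 6 that left one out. The passes include the fits on only the 4 libraries numbered 2 and 3. Those fits lack no-sgRNA replicate 4 and CRISPRa replicate 5, the lowest CRISPRa library for Trim69. Without CRISPRa replicate 5 alone Trim69 did not pass (edgeR adjusted p 0.0520). Trim15, which lies beside Trim26 on chromosome 17, had 58, 25 and 39 counts against 16, 16 and 20, with a log2 change of 1.10 (edgeR, SE 0.45, adjusted p 0.106).

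The remaining members with a fold change covered a wide range of levels and stayed near their controls. Trim35 stood at 433, 431 and 431 CPM against 426, 447 and 403 CPM, a log2 change of 0.02 (SE 0.06). Trim44, a partner of other TRIM proteins, stood at 323, 322 and 322 CPM against 296, 295 and 276 CPM, and its difference of 0.16 (SE 0.06) did not pass (edgeR adjusted p 0.0818) although the groups did not overlap. Trim23, which joins a RING finger to an ARF domain, had a log2 change of 0.23, Trim37, the mulibrey nanism gene, of -0.03, and the membrane-anchored pair Trim13 and Trim59 of -0.28 and -0.15. Trim7, Trim8, Trim11, Trim17, Trim39, Trim41, Trim45, Trim62, Trim68 and Trim80 lay between -0.23 and 0.41, and none passed. Of the 30 members not called, 23 had a log2 change within 0.25 of 0.

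The 24 members below 0.5 CPM held at most 24 counts in any library, and 22 of them at most 10. In the 7 with 0 counts throughout (Trim30d, Trim40, Trim42, Trim55, Trim58, Trim60 and Trim61) expression was not detectable, where 3 counts correspond to 0.0876 to 0.101 CPM in a library. The other 17 were Trim5, Trim6, Trim10, Trim12a, Trim29, Trim30b, Trim30c, Trim31, Trim38, Trim43a, Trim43b, Trim43c, Trim50, Trim52, Trim63, Trim72 and Trim75. The 3 Trim43 genes, which are active in the early embryo, share 45.9% to 58.6% of their words with other genes and had at most 9 counts each.

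TRIM proteins whose genes carry other names were compared next. Of 8 listed TRIM or TRIM-like genes 4 were tested, and 1 rose, where 9.47% of all tested genes did. Pml, which is TRIM19 and forms nuclear bodies that restrict viruses, stood at 75.7, 73.5 and 78.7 CPM with CRISPRa and at 34.2, 40.6 and 36.2 CPM in the controls. Its groups were far apart, with a log2 change of 1.04 (edgeR, SE 0.08, adjusted p 4.11e-07). The midline gene Mid2, known as TRIM1, had a log2 change of 0.20 (edgeR adjusted p 0.166), its relative Mid1 of 0.62 (0.489) and Bspry of 0.08 (0.896). The groups of Mid2 did not overlap, and in the authors' deposited table Mid2 passed, at 0.24 (adjusted p 0.0208). Mefv, Triml1 and Triml2 had 0 counts in every library, and Cmya5 was too low to test.

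Enzymes and partners that TRIM proteins work with were taken as a further list. Of 16 listed genes 15 were tested, 3 rose, 1 fell and 11 did not pass, with a median log2 change of 0.03, where 9.47% of all tested genes rose and 9.25% fell. Ddx58, the gene of RIG-I, which is a substrate of Trim25, had 9.76 ± 0.803 CPM in the controls and 127 ± 5.93 CPM with CRISPRa (SD, n = 3). Its log2 change was 3.70 (edgeR, SE 0.09, adjusted p 1.67e-13). Zc3hav1, the antiviral RNA-binding partner of Trim25, stood at 410 ± 28.4 against 201 ± 13.7 CPM (SD, n = 3), which is 1.03 on the log2 scale (edgeR, SE 0.07, adjusted p 9.38e-08). Mavs, the adaptor downstream of RIG-I, fell from 98.4 ± 3.91 to 78.1 ± 8.95 CPM (SD, n = 3), which is -0.33 on the log2 scale (edgeR, SE 0.08, adjusted p 0.0113). Rnf135, another ligase of RIG-I, had 0 counts in all 6 libraries. Zfp36, an mRNA decay factor, had groups that did not overlap, with a log2 change of 0.35 that did not pass (edgeR, SE 0.13, adjusted p 0.0732). In the authors' deposited table Zfp36 passed, at 0.48 (adjusted p 0.000103).

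Among the E2 ubiquitin-conjugating enzymes, which hand ubiquitin to RING ligases, Ube2l6 alone passed the test. This enzyme, the E2 of the ubiquitin-like protein ISG15, stood at 25.5, 27.0 and 31.8 CPM with CRISPRa and at 7.6, 6.1 and 6.0 CPM in the controls, which is 2.10 on the log2 scale (edgeR, SE 0.13, adjusted p 2.51e-08). Its close relative Ube2l3 had a log2 change of 0.15 (edgeR adjusted p 0.145). The enzymes best known for work with TRIM ligases did not pass: Ube2d1, Ube2d2a and Ube2d3 lay between -0.16 and 0.04, Ube2n at -0.12, Ube2v2 at -0.03 and Ube2w at 0.03.

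**Figure D5:**
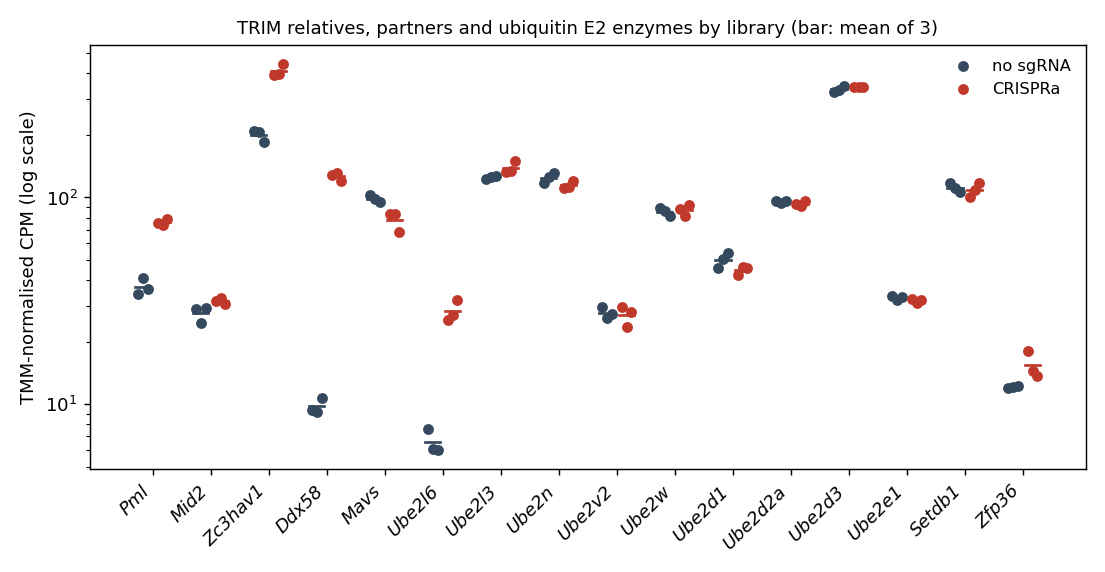
TMM-normalised CPM (log axis) in 3 no-sgRNA (dark) and 3 CRISPRa (red) libraries for TRIM relatives, partners and E2 enzymes, with bars at the means. Pml, Zc3hav1, Ddx58 and Ube2l6 have red points well above the dark ones, Mavs has them below, and Ube2l3, Mid2 and Zfp36 have them slightly above without passing the test.

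The authors' deposited table compares 8 samples and lists all 44 members with an adjusted p. Of these members 15 were higher and 3 lower in the authors' deposited table at an adjusted p under 0.05, where 14.8% and 13.8% of its genes with an adjusted p were, 28.6% in all. The 14 members called in the 6 libraries were all called in the authors' deposited table with the same sign, as were Trim23, Trim44 and Trim69, higher, and Trim41, lower. The labels give 8 samples, so these 6 libraries are taken to be among them, and the tables are not independent. In the authors' deposited table Trim69 had a log2 change of 2.13 (adjusted p 0.00303) and Trim9 one of 0.26 (adjusted p 0.106). Trim34b stood lower in the authors' deposited table, at 5.03, than in the 6 libraries, at 5.92.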

How the data were processed

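Poly(A)-enriched RNA of 8 labelled samples, 4 per group, was sequenced per the labels. The counts per gene that the authors deposited were used for 6 of them (STAR 2.5.1b, featureCounts and mm10, per the submitters' processing notes; counting options, strand use and annotation are not given in the sources used here). The remaining samples, replicate 1 with CRISPRa and replicate 5 without a guide, were not used here. Gene spans match GENCODE M21 for all 68 members, and coordinates are 1-based on GRCm38. Lengths are the summed exon bases in the deposited table and were not compared with GENCODE. A second table by the authors has the columns of DESeq2, per the file headers: a signal (mean normalised count), log2 fold changes with standard errors, a Wald score and p-values. Its contrast direction is not stated; it was read as CRISPRa against no sgRNA from the sign of the interferon-stimulated genes, so their sign in it is no separate check.

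Counts were tested with edgeR 4.0.16 in R 4.3.3 (filterByExpr, TMM, quasi-likelihood F test, no covariate), with Benjamini-Hochberg adjustment over all 15117 genes tested; the SE is the log2 fold change divided by the square root of F. CPM are TMM-normalised, except in the 0.5 CPM rule, the marker sums and the values of Nans, which use library totals. Alternatives were other scalings (RLE, upper quartile, library totals), other filters, DESeq2 1.42.0, limma-voom (limma 3.58.1), an adjusted p under 0.01, each library left out, the replicate block, and, chosen after seeing the data, halved counts. The tests were checked on simulated data. Shared words are 50-base stretches of GENCODE M21 transcripts found, on either strand, in another gene.

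The members and lists were chosen with earlier results of these data known. Any member may be named; values per library go to members at or above 0.5 CPM that were called with at least a 2-fold difference, are interferon-linked, are among the 5 highest per exonic length or the 5 called members with the lowest fold change, with others added after their values were seen, as were Scn2a and Nans. Replicates 2 and 3 occur in both groups, from the sample titles, but nothing in the labels says that a number marks a shared culture.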

Additional observations from a re-analysis of the deposited data

How the results depend on the processing

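The number of TRIM members called ran from 11 to 17 over 12 alternatives, among them the 4-library fits, and from 11 to 14 over the 6 that dropped one, against 14. Of the 14, 11 were called in every alternative at 0.05 that tested them, the exceptions being Trim71, Trim47 and Trim27. The number called lower fell from 2 to 1 with library totals as the only scaling, with no filter and at an adjusted p under 0.01, and ran from 1 to 2 when 1 library was left out; the cause was not tested, apart from the stricter threshold itself. Of the 30 members not called, 26 were called in no alternative, and Trim9, Trim44, Trim46 and Trim69 were in some. The partner that fell, Mavs, was not called at an edgeR adjusted p under 0.01, which left 0 of 15 (unadjusted p 0.00113). The filter of 1 CPM or more in 4 libraries or more left Trim30a, Trim34a, Trim34b, Trim15, Trim54, Trim69 and Trim80 untested.

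Equal replicate numbers did not deviate together (correlation across genes -0.0046 for number 2 and -0.0256 for number 3). With the replicate block on these 4 libraries 16 members were called, against 15 in the same libraries unblocked, and TRIM-protein genes under other names called rose from 1 to 2. Trim30a was 7.09 in these 4 libraries with and without the block, and Trim69 2.89 with it and 2.62 without it, against 8.18 and 2.04 in all 6.

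Signs turned only for members near 0. With the block they were -0.0031 (Trim33), 0.0772 (Trim7), -0.0123 (Trim35) and 0.0001 (Trim8), and in the same 4 libraries unblocked -0.0030 (Trim33), 0.0853 (Trim7) and -0.0127 (Trim35). Trim3 was 0.0012 with RLE and with DESeq2, 0.0085 with library totals and 0.0059 with the 1 CPM filter, and Trim36 was 0.0048 and 0.0022 in the last 2. With 1 library left out the ranges were -0.0007 to 0.0742 for Trim33, -0.0100 to 0.1088 for Trim24, -0.0765 to 0.0573 for Trim3, -0.3412 to 0.1151 for Trim7, -0.0769 to 0.1799 for Trim17, -0.0674 to 0.0290 for Trim37, -0.0156 to 0.0573 for Trim35 and -0.1009 to 0.0510 for Trim36.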
